A study of Mus musculus with 20 samples.

Results

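The genes described here mark the mural cells of brain vessels, the pericytes and vascular smooth muscle cells that wrap the endothelial tube. The set held 9 genes of 18194 measured: Pdgfrb, Rgs5, Kcnj8, Abcc9, Vtn, Anpep, Acta2, Tagln and Myh11. Each gene was read from the brightest of its probe sets, out of 19 probe sets that carried 1 of these symbols and no other. The rule used the symbols and the overall brightness of the probe sets, not a difference between groups. The members themselves were chosen with earlier results of these data known.

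Tissue enriched for either motor or sensory cortex came from female C57Bl6 mice of 8 to 12 weeks at injection. EAE, experimental autoimmune encephalomyelitis, is a model of multiple sclerosis, and it was induced with a MOG (myelin oligodendrocyte glycoprotein) peptide, of which both rear flanks received 100 µg and the tail base 50 µg. Pertussis toxin, 400 ng, was injected on day 0 and again on day 3. The 6 EAE mice had average grades of 2.50 to 3.50 at days 18 to 21, while the 4 healthy mice were their cage mates. The labels mention no mock injection of the healthy mice, so the comparisons hold the immunisation along with the disease. Every mouse gave 1 motor and 1 sensory array, 20 in all, and each of 2 cohorts held 3 EAE and 2 healthy mice. Mice were perfused before 1 mm slices were dissected, and the tissue was whole cortex, so the vessel genes were read against the RNA of neurons and glia. Cortical neuron markers were bright in all groups (Slc17a7, the vesicular glutamate transporter of cortical neurons, averaged 12.83). Ppp1r1b, a marker of striatal neurons, averaged 11.36. The other striatal markers measured, Rgs9, Drd1 and Drd2, averaged 10.20, 9.07 and 7.10. Whether adjoining striatum entered the tissue was not tested. Values are deposited log2 signals, in which a difference of 1 is a doubling; the number of mice limits the precision.

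Pericytes sit on capillaries inside the basement membrane and help to keep the barrier between blood and brain, whereas smooth muscle cells ring arteries and arterioles and set their width. Platelet-derived growth factor from endothelium acts on the receptor encoded by Pdgfrb and recruits both cell types. Smooth muscle cells carry a contractile apparatus of actin, myosin and their partners, whose genes are driven by serum response factor (SRF) with its coactivator myocardin through promoter elements called CArG boxes. Pericytes of the brain capillary are better marked by an ATP-sensitive potassium channel and by the secreted proteins and enzymes in this set.

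The upstream sequence of Acta2, the smooth muscle actin gene, is shown because Acta2 had the smallest adjusted p of the set between the regions and because its CArG elements are a textbook case. It is taken from the RefSeq promoter table of build GRCm38.p6, chr19:34255374-34255623 on the minus strand, the 250 bases before the gene's start, with near matches to the CArG box in capitals.
Acta2 upstream: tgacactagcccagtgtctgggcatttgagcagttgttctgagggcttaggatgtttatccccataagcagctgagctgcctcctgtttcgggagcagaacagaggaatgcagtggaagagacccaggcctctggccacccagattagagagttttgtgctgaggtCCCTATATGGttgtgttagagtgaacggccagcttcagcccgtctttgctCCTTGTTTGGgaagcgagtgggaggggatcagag
The motif was searched on both strands of windows from 250 bases before to 50 bases after each start. Of the 9 genes, 6 had a window in the table (Rgs5, Kcnj8, Abcc9, Anpep, Vtn and Acta2; not Pdgfrb, Tagln or Myh11). An exact CArG box was in 0 of the 6 windows and in 1.63% of 32851 windows of all genes. With 1 mismatch allowed in the A/T core, Acta2 alone among the 6 matched, with the sites CCCTATATGG and CCTTGTTTGG, which begin 84 and 34 bases before the start, and 9.98% of all windows matched. A match describes letters and is not evidence of binding.

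The first question was how the genes compared between motor and sensory cortex of the same mouse. In the paired fit of all 10 mice, with limma and the mouse as a block, 5 of the 9 genes were lower in motor cortex: Acta2, Tagln, Myh11, Vtn and Rgs5. The background was 5.56% of all genes called lower in motor cortex, and a further 1396 genes were called higher. All 9 genes had a negative difference, with a median of -0.11, whereas 40.9% of all genes were negative and their median was 0.02. The signs of all 9 were the same after quantile normalisation of the arrays. In such bulk tissue, fewer mural cells and less RNA per cell cannot be told apart.

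Acta2 encodes the smooth muscle actin of arteriolar walls. Its log2 signal in motor cortex of the healthy mice was 10.27, 10.40, 10.27 and 10.33, and in their sensory cortex 10.61, 10.53, 10.47 and 10.40. In EAE mice it ran from 10.08 through a median of 10.20 to 10.44 in motor cortex and from 10.40 through 10.48 to 10.61 in sensory cortex. Motor cortex was lower in each of the 10 mice, and in healthy mice the ranges of the regions met without overlapping, a pattern seen with motor lower in 3.76% of genes. The paired difference was -0.23 ± 0.04 (SE, n = 10 mice, adjusted p = 0.000741, limma), a ratio of 0.852, and no mouse left out in turn removed the call.

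Tagln encodes transgelin, an actin-binding protein of contractile smooth muscle. It measured 9.08, 9.34, 9.30 and 9.47 in healthy motor cortex and 9.11, 9.31, 9.49 and 9.56 in healthy sensory cortex, so these groups overlapped over nearly their whole range. In EAE mice the motor values ran from 8.79 through 9.19 to 9.26, and the sensory values from 9.20 through 9.44 to 9.69. The motor array was the lower one in 6 of 6 EAE mice and in 3 of 4 healthy mice. Over all 10 mice the difference was -0.24 ± 0.05 (SE, adjusted p = 0.00674, limma), and it was called with any mouse left out.

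Myh11, the smooth muscle myosin heavy chain, followed with a wider spread. It measured 8.14, 8.11, 8.28 and 8.22 in healthy motor cortex and 8.16, 8.60, 8.32 and 8.49 in healthy sensory cortex. In EAE mice it ran from 8.00 through 8.26 to 8.58 in motor and from 8.05 through 8.59 to 8.63 in sensory cortex. The groups overlapped, yet motor cortex was lower in 10 of 10 mice, by 0.02 to 0.54. The difference was -0.22 ± 0.06 (SE, adjusted p = 0.0245, limma), and it was not called without EAE mouse 2 or 4 or healthy mouse 2 or 4, where the adjusted p reached 0.0611 at most over all mice left out. The labels give a second chip processing day for 2 arrays, both of healthy mice (the motor array of mouse 4 and the sensory array of mouse 1); without them these mice left the paired fit, and of the 5 genes only Acta2 and Tagln were called. Myh11 then stood at -0.23 (adjusted p = 0.0572, limma). A pattern of motor below sensory in every mouse, as for Acta2 and Myh11, was found in 3.25% of all genes.

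The probe sets bear on the reading of both genes. The brightest Acta2 probe set carries the Affymetrix suffix for probes that can match more than 1 gene. Of 5 other actin genes measured, 0 were called between the regions with limma, with a median of -0.03. At an unadjusted p under 0.05 there were also 0, against 25.2% of all genes. Acta2's other 2 probe sets were dim (means of 5.23 and 5.82) and stood at -0.11 and 0.02, and the second probe set of Myh11, at a mean of 6.58, stood at 0.02 ± 0.07 (SE). With the mean of all probe sets in place of the brightest, Acta2 stood at -0.11 (adjusted p = 0.09, limma) and Myh11 at -0.10 (adjusted p = 0.308, limma), and neither was called. Tagln had 1 probe set.

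**Figure D1:**
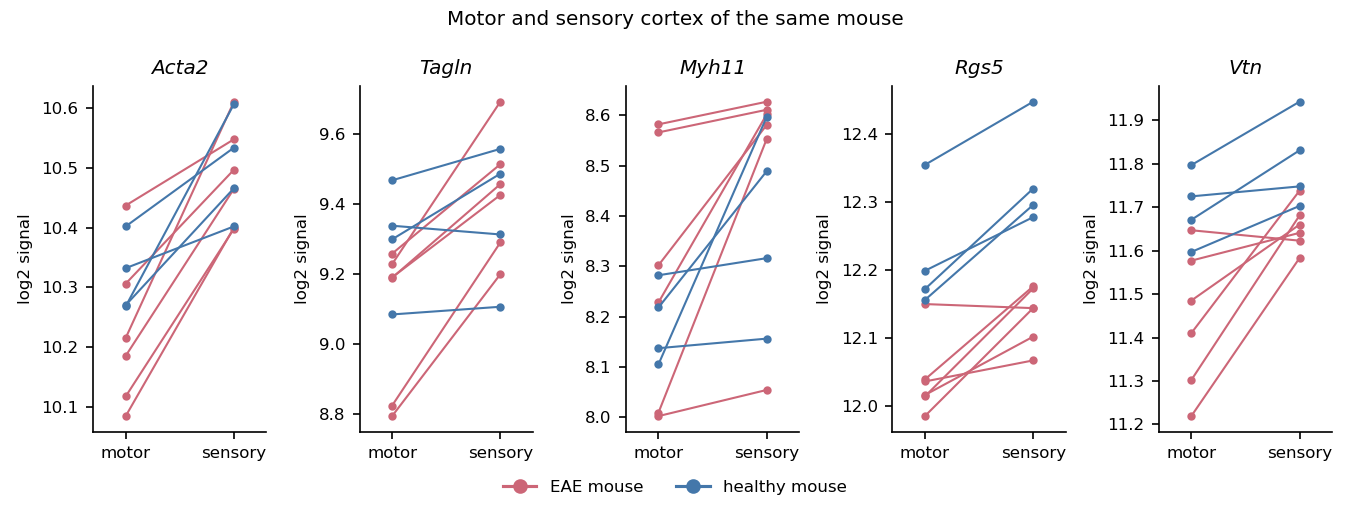
Log2 signal in motor and sensory cortex, each line joining the 2 arrays of a mouse (6 EAE, 4 healthy), for the 5 genes that were lower in motor cortex. Acta2 and Myh11 rose from motor to sensory in 10 of 10 mice, and Tagln, Rgs5 and Vtn in 9 of 10.

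Of the pericyte genes, Vtn and Rgs5 were lower in motor cortex. Vtn encodes vitronectin, a matrix protein that pericytes secrete and that acts on endothelial integrins. It measured 11.60, 11.73, 11.67 and 11.80 in healthy motor and 11.70, 11.75, 11.83 and 11.94 in healthy sensory cortex. In EAE mice it ran from 11.22 through 11.45 to 11.65 in motor and from 11.58 through 11.65 to 11.74 in sensory cortex. Motor cortex was lower in 9 of 10 mice, EAE mouse 3 being the exception, and the difference was -0.17 ± 0.04 (SE, adjusted p = 0.0181, limma). Without the second processing day Vtn stood at -0.18 and was not called (adjusted p = 0.0589).

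Rgs5, a regulator that switches off G-protein signals in mural cells, was lower in motor cortex by less, -0.10 ± 0.03 (SE, adjusted p = 0.0267, limma), in 9 of 10 mice. EAE mouse 3 stood apart again, at 0.01. The Rgs5 call was lost without EAE mouse 1, 2 or 4 or healthy mouse 1, 2 or 3, with adjusted p from 0.0149 to 0.0667 over the mice left out, and without the second processing day, with an adjusted p of 0.115. Its other 3 probe sets were negative too, from -0.27 to -0.16.

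The other 4 genes were not called between the regions. Pdgfrb, the receptor, stood at -0.11 ± 0.05 (SE, adjusted p = 0.236, limma), with motor lower in 7 of 10 mice. Abcc9, the sulphonylurea receptor subunit of the pericyte potassium channel, stood at -0.09 ± 0.04, and Kcnj8, its pore subunit, at -0.01 ± 0.04. The Abcc9 probe set carries the same suffix as that of Acta2. Kcnj8 and Abcc9 are neighbours on chromosome 6 with 0 genes between them in the RefSeq table. Anpep, the aminopeptidase also called CD13, stood at -0.06 ± 0.05. The 95% intervals of these 4 reached from -0.23 at the lowest to 0.07 at the highest. That of Abcc9 lay below 0, from -0.18 to -0.006 (unadjusted p = 0.038, adjusted p = 0.166, limma), with motor lower in 9 of 10 mice. The dimmer Abcc9 probe sets stood at -0.04 and 0.01.

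Taking the conditions apart, 2 of the 9 genes were lower in motor cortex in the 6 EAE mice, against 1.86% of all genes. These were Tagln at -0.35 ± 0.05 (SE, adjusted p = 0.00704, limma) and Acta2 at -0.26 ± 0.05 (adjusted p = 0.0222). The Acta2 call stood in 2 of 6 fits that left out 1 EAE mouse (without mouse 2, 4, 5 or 6 it was lost, with adjusted p up to 0.0881), and Tagln in all 6. In the 4 healthy mice 0 of 9 were called with limma, against 2.94% of all genes lower; 3 of 9 had an unadjusted p under 0.05, as did 20.5% of all genes. Acta2 came nearest there, at -0.18 ± 0.06 (SE, adjusted p = 0.085, limma), and Tagln stood at -0.07 ± 0.06. Within cohort 1 and cohort 2 the differences over both conditions were -0.22 and -0.25 for Acta2, -0.27 and -0.21 for Tagln, -0.28 and -0.15 for Myh11, -0.13 and -0.22 for Vtn, and -0.11 and -0.10 for Rgs5. Of these, Acta2 and Tagln were called in cohort 2 and none in cohort 1.

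Other genes of the contractile apparatus and its neighbours were set beside them. Of 14 other contractile smooth muscle genes, 3 were lower in motor cortex and 0 higher, with a median of -0.06. Mylk, the myosin light chain kinase that starts contraction, fell furthest in that list, by 0.64, and Myl9, a regulatory myosin light chain, and Tpm2, a tropomyosin, fell by 0.27 and 0.15. Of 12 regulators of contractile genes, 2 were lower: Notch3, the receptor needed for arterial smooth muscle, by 0.13, and Tgfbr2, a receptor for transforming growth factor beta, by 0.15. Notch3 was also the only called gene of 13 other pericyte genes.

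The partners of the members moved both ways between the regions. Of 6 PDGF ligands and receptors beside Pdgfrb, 2 were higher in motor cortex, Pdgfc at 0.37 ± 0.05 (SE) and Pdgfra at 0.17 ± 0.05, and 0 were lower. Of 3 relatives of the potassium channel subunits, Abcc8, the sulphonylurea receptor of neurons, was lower at -0.44 ± 0.06 and Kcnj10, an astrocyte channel, at -0.18 ± 0.03. Of 7 relatives of Rgs5, Rgs3 (-0.41) and Rgs4 (-0.15) were lower and Rgs8 (0.28) higher. Of 8 vitronectin receptor subunits measured, Itgav was lower, at -0.11. Among 8 vasoactive receptors and kinases, Ednrb, an endothelin receptor that astrocytes also carry, was lower at -0.21 and Adra1b, an adrenergic receptor, higher at 0.59.

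Markers of other cells differed between the regions as well. Of 10 fibroblast and meningeal markers, 4 were lower in motor cortex (Igfbp2 at -0.54, Dcn at -0.38, Igf2 at -0.37 and Col3a1 at -0.33) and Pdgfra, which oligodendrocyte precursors also express, was higher. Their summed linear signal ranged from 6560 to 9449 in motor and 8303 to 12120 in sensory cortex of EAE mice, and from 7961 to 9182 and 8071 to 9637 in healthy mice. Of 10 endothelial markers, Pecam1 was lower, at -0.11, and all 10 were negative, with a median of -0.06. Of 6 astrocyte markers, Gfap (-0.60) and Aldh1l1 (-0.18) were lower. Of 5 cortical neuron markers, Neurod6 was higher at 0.52, and of 4 striatal neuron markers Ppp1r1b was lower at -0.47 and Rgs9 higher at 0.14. Of the 6 choroid plexus, 3 blood cell and 11 myeloid markers measured, 0 were called with limma between the regions. In that order 1, 1 and 2 had an unadjusted p under 0.05, as did 25.2% of all genes. No marker was at 0, since log2 array signals have no true zero. The part of these markers in the lower mural signals was not tested.

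**Figure D2:**
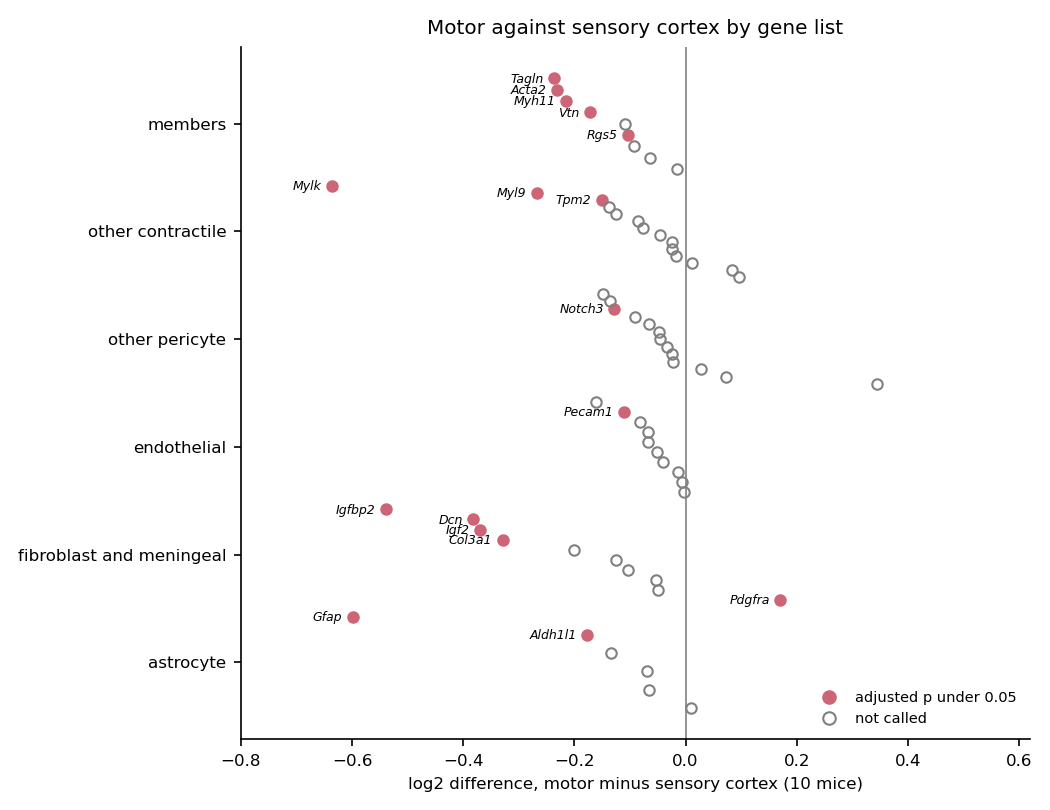
Motor minus sensory log2 difference of each gene in 6 lists (paired fit of 10 mice), filled where the adjusted p was under 0.05. The 9 members all lay below 0, with 5 filled, and 4 fibroblast and meningeal markers lay between -0.54 and -0.33.

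The second question was how EAE compared with health. In motor cortex 0 of 9 genes were called with limma, against 2.25% of all genes, and 4 of 9 had an unadjusted p under 0.05, as did 15.9% of all genes. In sensory cortex 0 of 9 were called, against 2.41% of all genes, and 2 of 9 had an unadjusted p under 0.05, as did 18.5%. With the 2 arrays of a mouse averaged, 2 of 9 were lower in EAE mice, Rgs5 and Vtn, against 5.64% of all genes called lower. The median of the members was -0.11 in motor cortex, where 8 of 9 were negative (7 after quantile normalisation, as Abcc9 moved from -0.01 to 0.04), and -0.01 in sensory cortex. All genes had medians of -0.01 and 0.00.

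**Figure D3:**
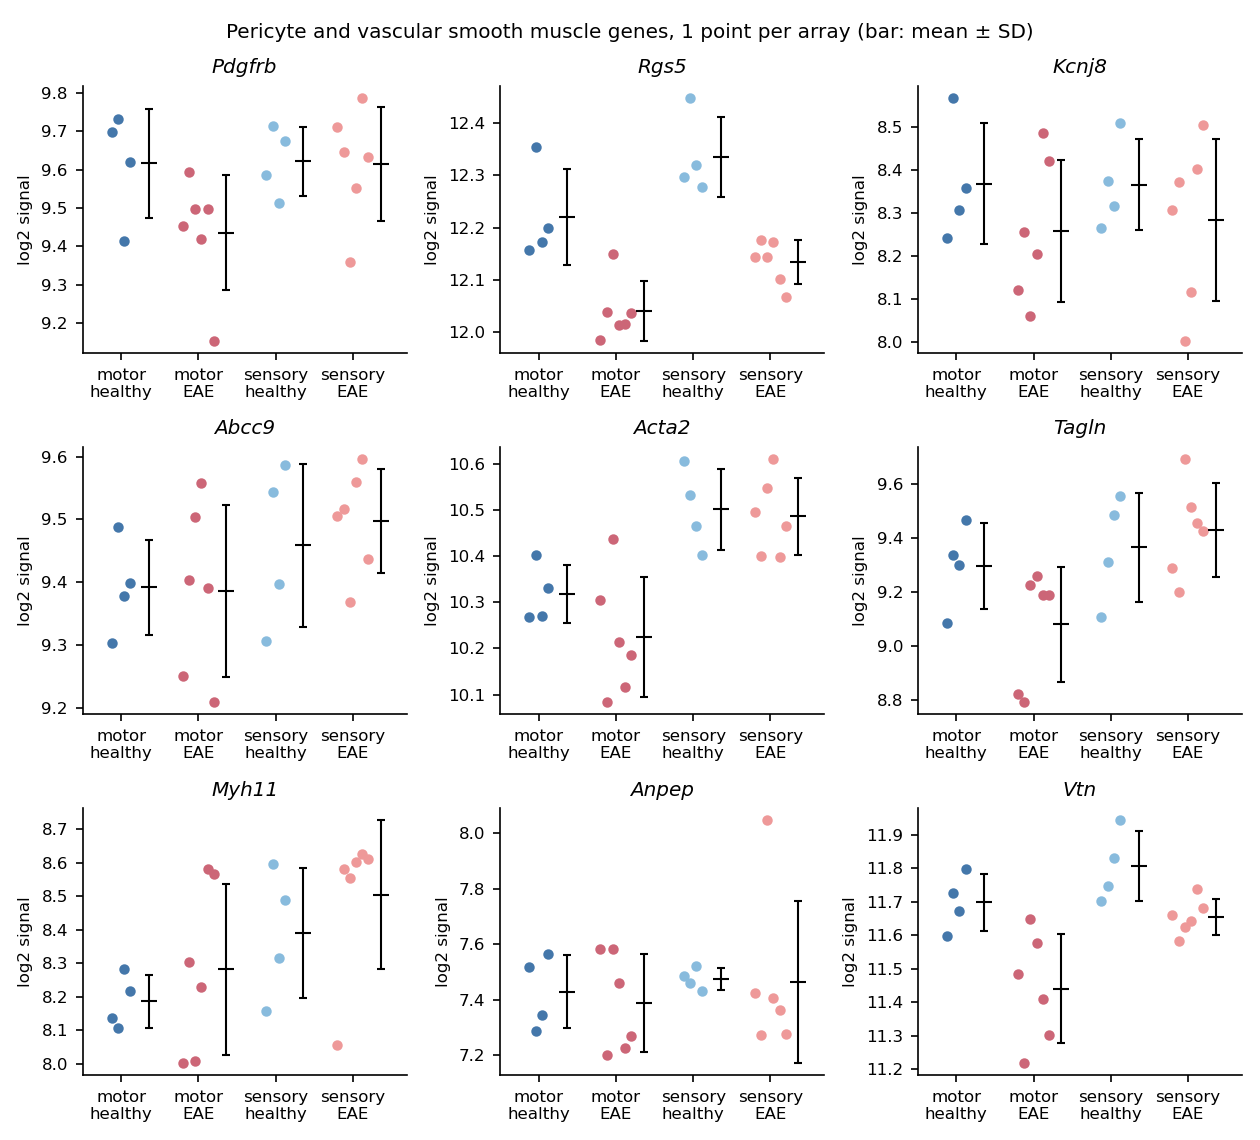
Log2 signal of the 9 genes on each array, by region and condition (6 EAE and 4 healthy mice), with the mean ± SD at the right of each group. The Rgs5 arrays of EAE mice lay below those of healthy mice in both regions, while the groups of the other genes overlapped between conditions.

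Rgs5 is known as one of the most pericyte-enriched transcripts of the brain. In motor cortex it measured 12.16, 12.35, 12.17 and 12.20 in healthy mice, and in EAE mice it ran from 11.98 through 12.03 to 12.15. In sensory cortex it measured 12.30, 12.45, 12.32 and 12.28 in healthy mice, and in EAE mice it ran from 12.07 through 12.14 to 12.18. Every EAE array lay below every healthy array of its region, a pattern found with EAE lower in 4.19% of genes in motor and 4.04% in sensory cortex.

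The Rgs5 difference was -0.18 ± 0.06 in motor cortex (SE, adjusted p = 0.14, limma) and -0.20 ± 0.05 in sensory cortex (adjusted p = 0.0566), and neither was called. Averaged over the regions, EAE mice stood at 12.09 ± 0.04 (SD, n = 6) and healthy mice at 12.28 ± 0.08 (SD, n = 4). That difference was -0.19 ± 0.04 (SE, adjusted p = 0.0228, limma), a ratio of 0.876. All 6 EAE mice lay below all 4 healthy mice, as they did in 6.93% of all genes. It was not called without EAE mouse 5 or healthy mouse 2, 3 or 4, with differences from -0.22 to -0.15 and adjusted p from 0.0284 to 0.0704 over the mice left out. Within the cohorts it was -0.21 and -0.17, called in neither (adjusted p = 0.45 and 0.11). Without the 2 arrays of the second processing day healthy mice 1 and 4 had no mean of both regions, and Rgs5 stood at -0.24 and was not called (adjusted p = 0.106).

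All 4 Rgs5 probe sets were lower in EAE. In sensory cortex the 3 dimmer ones stood at -0.39 ± 0.09, -0.45 ± 0.09 and -0.57 ± 0.11 (SE), and the latter pair was called when all 34958 single-symbol probe sets were adjusted together (adjusted p = 0.0423 and 0.0411, limma). The probe sets at -0.39 and -0.45 carry Affymetrix suffixes for probes that can match more than 1 transcript or gene, while the brightest and the one at -0.57 do not. In motor cortex the same 3 stood at -0.28, -0.20 and -0.22 and were not called. With the mean of its probe sets in place of the brightest, Rgs5 stood at -0.41 ± 0.06 in sensory cortex (adjusted p = 0.0128, limma), past the threshold. A fit of all 20 arrays with the mouse as a random block also called Rgs5, in motor cortex (adjusted p = 0.0398) and in sensory cortex (adjusted p = 0.0149).

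**Figure D4:**
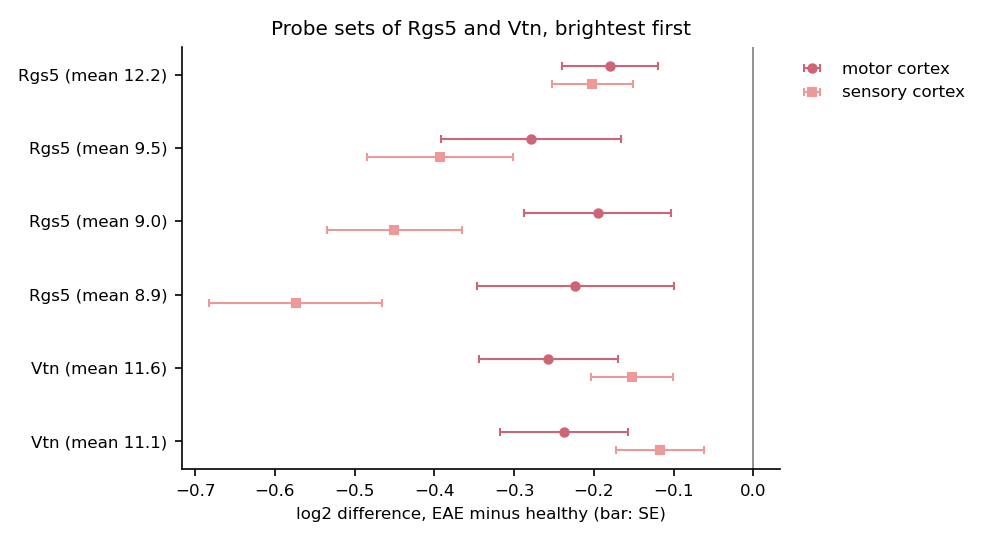
EAE minus healthy log2 difference (± SE) of the 4 Rgs5 and 2 Vtn probe sets in motor and sensory cortex, brightest first, with the mean signal over 20 arrays beside each. All 6 lay below 0 in both regions, and the 3 dimmer Rgs5 probe sets in sensory cortex reached furthest, to -0.57.

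Vtn was the other lower gene. Its EAE arrays overlapped the healthy ones in both regions, with 5 of 6 below all healthy arrays in each. The difference was -0.26 ± 0.09 in motor cortex (SE, adjusted p = 0.156, limma) and -0.15 ± 0.05 in sensory cortex (adjusted p = 0.13). Averaged over the regions EAE mice stood at 11.55 ± 0.09 (SD, n = 6) and healthy mice at 11.75 ± 0.09 (SD, n = 4), and all 6 EAE mice lay below all 4 healthy mice, the closest being 11.63 and 11.65. For Vtn too, this order was the one found in 6.93% of all genes.

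The averaged Vtn difference was -0.20 ± 0.06 (SE, adjusted p = 0.046, limma), close to the threshold. It was called in 2 of 10 fits that left out 1 mouse (those without EAE mouse 1 or 3), with differences from -0.23 to -0.17 and adjusted p from 0.0289 to 0.161. It stood at -0.16 and -0.25 within the cohorts, called in neither, and at -0.18 (adjusted p = 0.0747) after quantile normalisation. Without the second processing day it stood at -0.20 and was not called (adjusted p = 0.235). Its second probe set stood at -0.18 ± 0.05 (SE, unadjusted p = 0.00624, limma).

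The remaining genes were not called in EAE against health. Pdgfrb measured 9.70, 9.73, 9.41 and 9.62 in healthy motor cortex and ran from 9.15 through 9.47 to 9.59 in EAE motor cortex, a difference of -0.18 ± 0.07 (SE, adjusted p = 0.255, limma). Its sensory difference was -0.01 ± 0.08, and its other probe set stood at -0.03 in motor cortex. The motor difference of Tagln was -0.22 ± 0.09 and its sensory difference 0.06 ± 0.10. Acta2 stood at -0.09 ± 0.07 and -0.02 ± 0.06, and Myh11, the member with a positive difference in both regions, at 0.10 ± 0.09 and 0.12 ± 0.12.

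The channel subunits and Anpep lay closer to 0 or were spread more widely. The motor difference of Kcnj8 was -0.11 ± 0.09 (SE) and its sensory difference -0.08 ± 0.09, and those of Abcc9 were -0.01 ± 0.08 and 0.04 ± 0.07. Anpep stood at -0.04 ± 0.09 and -0.01 ± 0.13 in the same order. The 95% intervals of these 3 genes averaged over the regions reached from -0.27 for Kcnj8 to 0.19 for Anpep, so changes of that size lay within the error of 10 mice.

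**Figure D5:**
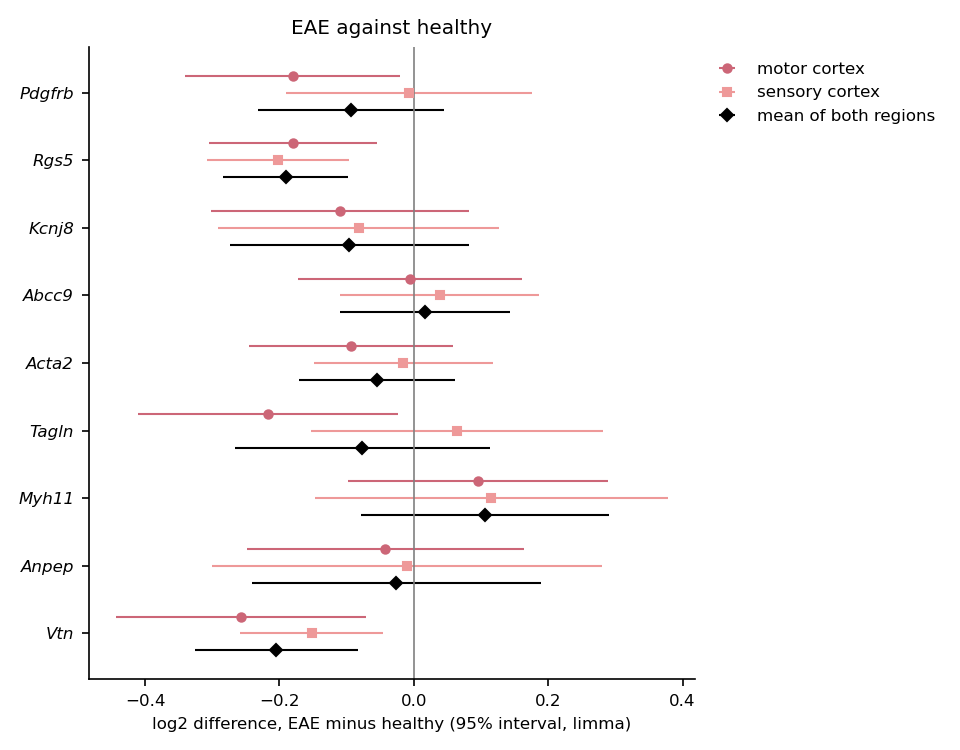
EAE minus healthy log2 difference of the 9 genes with limma's 95% interval, in motor cortex, in sensory cortex and for the mean of both regions. The intervals of Rgs5 and Vtn lay below 0 in all 3 fits, and those of Pdgfrb and Tagln in motor cortex alone.

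Whether the EAE difference itself differed between the regions was tested on each mouse's motor minus sensory value. With limma, 0 of 9 genes and 0% of all genes were called, and 1 of 9 had an unadjusted p under 0.05, as did 2.32% of all genes. That gene was Tagln, whose difference was more negative in motor cortex by -0.28 ± 0.08 (SE, unadjusted p = 0.00343, adjusted p = 1). Pdgfrb stood at -0.17 ± 0.09, and Rgs5, at 0.02 ± 0.06, had the interval from -0.12 to 0.16. The dimmer Rgs5 probe sets stood at 0.11 ± 0.10, 0.26 ± 0.14 and 0.35 ± 0.14 (SE), more negative in sensory cortex. The last had an unadjusted p of 0.0263 (limma), and none was called.

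The order of the 4 groups differed among the genes. Rgs5 and Vtn both ran from healthy sensory (12.34 ± 0.08 and 11.81 ± 0.11, SD) through healthy motor and EAE sensory to EAE motor cortex (12.04 ± 0.06 and 11.44 ± 0.16). For both, the mean ± SD of neighbouring groups in that order overlapped. Acta2 instead ordered by region, with healthy sensory at 10.50 ± 0.09, EAE sensory at 10.49 ± 0.08, healthy motor at 10.32 ± 0.06 and EAE motor at 10.22 ± 0.13, and only the step from EAE sensory to healthy motor exceeded the spread of both groups. For Tagln, EAE motor cortex was lowest at 9.08 ± 0.21 and EAE sensory highest at 9.43 ± 0.17. For Myh11 the lowest was healthy motor at 8.19 ± 0.08 and the highest EAE sensory at 8.51 ± 0.22. In these last and in Pdgfrb, Kcnj8, Abcc9 and Anpep every neighbouring pair of groups overlapped within their SD.

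Other vessel genes were set beside the members in EAE. Of 13 other pericyte genes, Mcam, an adhesion molecule of vessel walls, was lower in motor (-0.39 ± 0.07, SE, adjusted p = 0.0156, limma) and in sensory cortex (-0.43 ± 0.10, adjusted p = 0.0491). Ifitm1, an interferon-induced membrane protein, was higher in both (0.42 and 0.71), and averaged over the regions Atp13a5, a transporter of brain pericytes, was lower by 0.19. Of 14 other contractile smooth muscle genes, 0 were called with limma in motor, sensory or averaged values. In that order 1, 2 and 2 had an unadjusted p under 0.05, as did 15.9%, 18.5% and 25.9% of all genes. Smtn, which had the smallest p of these 14 in motor cortex, stood at -0.15 (unadjusted p = 0.0387, limma). Of the 6 other PDGF genes and 3 channel relatives, 0 were called in any of these 3 fits with limma. At an unadjusted p under 0.05 there were 2 PDGF genes and 1 channel relative in the averaged values, against 25.9% of all genes. Pdgfb, the endothelial ligand of Pdgfrb, stood at -0.16 ± 0.13 and -0.23 ± 0.11.

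Among regulators and receptors, Tgfb1 was lower in the averaged values by 0.26, and Itgb8, an integrin subunit that activates transforming growth factor beta, was lower in motor cortex by 0.43 (adjusted p = 0.00876, limma). Ednrb was lower in motor cortex at -0.52 ± 0.08 (SE, adjusted p = 0.00675, limma). In sensory cortex Ednrb stood at -0.43 ± 0.10 (adjusted p = 0.0629, limma) and Itgb8 at -0.09 ± 0.10, and neither was called. Of 7 relatives of Rgs5 and 5 other actin genes, 0 were called in EAE against health with limma, in either region or averaged. In the averaged values 2 and 1 had an unadjusted p under 0.05, as did 25.9% of all genes.

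Markers of the endothelium, which pericytes contact, were lower in EAE. Of 10 endothelial markers, 4 were lower in motor cortex, 5 were lower and 1 (Slc2a1, the glucose transporter) higher in sensory cortex, and 7 were lower in the averaged values, where Emcn stood at -0.68, Tie1 at -0.53, Slco1c1 at -0.52 and Tek at -0.39. Their summed linear signal was 11550 to 13407 in EAE and 13120 to 15294 in healthy motor cortex, and 12080 to 14122 and 13520 to 15410 in sensory cortex. The summed signal of the 9 members was 10339 to 11904 in EAE and 11666 to 13003 in healthy motor cortex, and 12034 to 12448 and 12648 to 13628 in sensory cortex. In that sum the brightest genes weighed most, here Rgs5 and Vtn (mean log2 signals of 12.16 and 11.63). These were the members called lower in the averaged values, and the other members were not called. Of 11 myeloid markers, S100a8 (1.77), S100a9 (1.32), Cd52 (1.07) and Lyz2 (0.66) were higher in the averaged values and Itgam (-0.41) was lower. Fibroblast and meningeal markers held Igfbp2, lower in motor cortex at -0.75, and Igf2, higher in sensory cortex at 0.60. The part of these markers in the lower Rgs5 and Vtn signals was not tested.

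Within groups the 9 genes varied little together. After each group's mean was subtracted, Pearson's r over the 20 arrays had a median of 0.098 over the 36 pairs of genes, from -0.772 for Kcnj8 with Anpep to 0.576 for Tagln with Vtn, and 3 pairs were over 0.5. These points share mice (2 arrays each) and cohorts. Over the same arrays the gene most like Pdgfrb was Ets1, a transcription factor (r = 0.878), that most like Kcnj8 was Cd9 (0.897), like Vtn Sft2d1 (0.892) and like Tagln Capn1, a calpain (0.873). The gene most like Abcc9 was Rpl22 (0.865) and like Anpep Adtrp (0.92). Myh11 was most like Sry, a gene of the Y chromosome, although all mice were labelled female (0.844). For Rgs5 the 3 most alike were Akap8 (0.822), Zfp950 (0.799) and Ppp4r1 (0.79), and for Acta2 they were Cbln4 (0.84), Tmem185a (0.782) and Pde7b (0.773). These values are the highest among 18194 genes over 20 arrays. How high the best r would reach by chance was not tested, so no relation between the genes is drawn from them.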

How the data were processed

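The deposited values are log2 signals of 45101 Affymetrix probe sets on 20 arrays; per the submitters' processing notes, RMA and Partek were used (versions not given). The RMA step equalises the arrays and compresses differences at low signal; array medians were 8.22 to 8.32. No 2 arrays were identical. Groups, mice and cohorts came from the labels. The brightest single-symbol probe set stood for each gene. Differences were fitted over 18194 genes with limma 3.58.1 in R 4.3.3 (two-sided lmFit and eBayes fits with the cohort as covariate), separately per region, on each mouse's mean, and on its motor minus sensory difference; the fit of motor against sensory cortex kept the mouse as a block. Calls needed a Benjamini-Hochberg adjusted p under 0.05. The motor and sensory arrays of a number share an animal; their deviations from group means correlated at 0.163 to 0.587, except -0.032 for EAE mouse 3. An EAE mouse and a healthy mouse with the same number are not the same animal. Every member was named; from other lists, called genes and at most 3 with the smallest p in EAE against health could be named. The members and lists were chosen with earlier results of these data known. The fits were tested on simulated data. Promoters are from RefSeq.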

Additional observations from a re-analysis of the deposited data

Results flagged for a closer look

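In the 36 groups of 4 or 6 arrays (9 genes by 4 groups), 3 arrays lay far from the rest of their group by Dixon's ratio of the gap to the range; chance alone gives about 1 in 20 groups. Rgs5 in motor cortex of EAE mouse 3 measured 12.15, against 11.98 to 12.04 in the other 5; without that mouse the motor difference was -0.20 (adjusted p = 0.105, limma). Myh11 in sensory cortex of EAE mouse 1 measured 8.05, against 8.55 to 8.63; without that mouse the sensory EAE difference was 0.20 (adjusted p = 0.182, limma). Anpep in sensory cortex of EAE mouse 3 measured 8.05, against 7.27 to 7.42; without that mouse the sensory EAE difference was -0.13 (adjusted p = 0.249, limma).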

How the results depend on the processing

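No called value of the 9 genes changed sign under any alternative run. Counts are of the 9 genes called. For EAE against healthy averaged over regions (2), 1 was called with all probe sets adjusted together and with quantile normalization, and 0 with the replicate block in place of cohort, within cohort 1, within cohort 2 and without the second processing day, where healthy mice 1 and 4 drop out of the averaged and paired fits; with 1 mouse left out it was 0 to 2. For motor against sensory (5), 3 were called with the mean of all probe sets, 0 within cohort 1, 2 within cohort 2, 2 without the second processing day, and 3 to 6 with 1 mouse left out; Acta2 and Tagln kept the call without the second day. In EAE mice (2), 1 was called with the mean of all probe sets and without the mouse as a block, that is, unpaired. The count was 0 within either cohort and 1 to 3 with 1 mouse left out. Vtn was called in EAE mice as well with trend and robust, with the median filter and without EAE mouse 3 (adjusted p = 0.0185, 0.0412 and 0.0401, limma). In healthy mice (0), 1 was called with eBayes trend and robust, the mean of all probe sets, the filter at the median level and without the second processing day. In motor EAE against healthy (0), 1 was called in the joint fit; in sensory EAE against healthy (0), 1 with trend and robust, the joint fit and the mean of all probe sets, and 2 with the median filter. The effect difference between regions stayed at 0. Fewer mice or fewer tested genes go with the cohort, processing day, left-out mouse and median filter settings. The other settings kept all mice and genes in the fit. Under the replicate block, EAE mice 5 and 6 had no healthy mouse of their number and so did not inform the EAE difference. With all probe sets adjusted together, the adjustment ran over 34958 probe sets in place of 18194 genes. The cause of the changed counts was not tested. The labels do not say that an EAE and a healthy mouse of the same number are paired. In the data, 3 of 4 healthy mice correlated best with the EAE mouse of their number, with same-number correlations of 0.082 to 0.432. How often chance or a shared cohort would give such matches was not tested, so they cannot show a pairing. With mice of the same number as a replicate block, Rgs5 stood at -0.18 (adjusted p = 0.0774, limma) and Vtn at -0.20 (adjusted p = 0.0831).

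Signal limits the dim probe sets of Acta2 and Myh11, and 4 healthy mice limit every EAE comparison. P-values weigh a difference against the spread between these mice or, in the paired fits, against the spread of their motor minus sensory differences.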
